A study of Macaca mulatta with 24 samples.

Results

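The CC chemokines are small secreted proteins that steer white blood cells, and 10 of their genes were followed in the jejunum of rhesus macaques after total-body irradiation (TBI): CCL2, CCL5, CCL8, CCL11, CCL19, CCL20, CCL21, CCL23, CCL25 and CCL28. Their probes were found by the gene symbol in the authors' normalized table. All 10 genes, out of 16094 genes with a symbol, were on the array, with 20 of its 43603 probes. Of these 20 probes, 19 were bright enough to be tested and 9 were well above background on all 24 arrays.

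RNA came from the full thickness of a short piece of jejunum from young adult male animals, 1 animal per array and without pooling. Animals in the control group had no irradiation (0 Gy) and are labelled as day 4 (4 arrays). The other animals received a single dose of cobalt-60 gamma radiation over the whole body. After 6.7 Gy, jejunum was taken on day 4 (4 arrays), day 7 (4) and day 12 (2), and after 7.4 Gy on day 4 (4), day 7 (4) and day 12 (2). The titles and sample fields give day 12 as the last day, whereas the protocol text of the labels names a later one. The same 4 control arrays served every comparison with control, so the 6 irradiated groups are not independent of each other, and no control was sampled on day 7 or day 12.

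A chemokine binds a receptor on a passing cell and directs where the cell goes. CCL2, CCL8 and CCL11 are inflammatory chemokines. CCL2 and CCL8 draw monocytes, and CCL11 (eotaxin) draws eosinophils, which normally reside in the intestine. CCL19 and CCL21 are made by stromal cells and vessels of lymphoid tissue and bring CCR7-bearing T cells and dendritic cells there. CCL20 is made by the epithelium that covers lymphoid follicles and draws CCR6-bearing cells. CCL25 and CCL28 are epithelial chemokines of mucosal surfaces, with CCR9 and CCR10 as their receptors. CCL5 draws T cells and monocytes, and CCL23 draws monocytes and resting T cells.

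The level of a probe is log2 of its background-corrected signal minus the 75th percentile of that array, so a level of 0 is as bright as that percentile and a difference of 1 is 2-fold. Levels of different probes cannot be set against each other. Where a gene had several probes, the one with the highest mean level stood for it. A call needed an adjusted p under 0.05 in limma together with at least 2-fold. With 1 array per animal, p-values measure the spread between these arrays. Error values after a mean are SD, and those after a log2 change are SE. In whole tissue, fewer cells of a type and less RNA per cell cannot be told apart.

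The arrays lay on 6 slides of 4 positions, and some slides were less sensitive. Between 39.4% and 87.7% of the probes cleared the background, depending on the array. The dimmest signal that did so was 129.6 to 274.9 on slide 5 and 40.62 to 82.96 on slide 4, but 7.033 to 31.77 elsewhere. All 4 controls lay at position 1 of slides 1 to 4. Enterocyte markers fit the labelled tissue, since all 7 enterocyte genes on the array, among them FABP1 and VIL1, were well above background on every control array.

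On day 4, 4 of the 10 genes were higher than control after 6.7 Gy (CCL2, CCL19, CCL20 and CCL21) and 5 of 10 after 7.4 Gy (CCL2, CCL8, CCL11, CCL19 and CCL21). CCL19 had the largest rise of the members at both doses, 13.2-fold and 12.8-fold. None of the 10 was lower by the same test. CCL25 and CCL28 lay below control in the mean at both doses without passing it. Counted by probe, 6 of 19 were called after 6.7 Gy, beside 1.98% of all 28171 tested probes, and 8 of 19 after 7.4 Gy, beside 2.6%. All arrays of the group stood above all controls for 5 of the 10 genes at each dose, beside 6.68% and 7.28% of all tested probes. The median log2 change over the 10 genes was 1.26 after 6.7 Gy and 1.88 after 7.4 Gy, beside -0.07 and -0.08 over all tested probes. The members were chosen with earlier results of these data known, so these values beside all probes do not test the family.

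**Figure D1:**
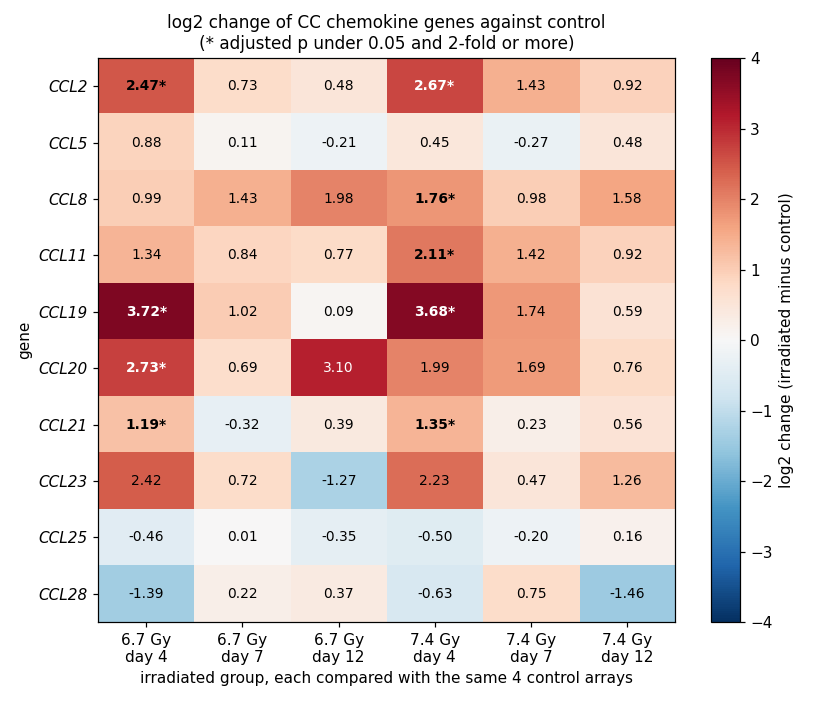
Log2 change of each of the 10 genes (rows) in the 6 irradiated groups (columns), each against the same 4 control arrays; red is higher and blue lower than control, and a star marks a call. The 9 stars all stand in the day 4 columns, with 3.72 and 3.68 for CCL19 as the largest changes, while 3.10 for CCL20 on day 12 after 6.7 Gy has no star.

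The direction of the called day 4 changes held in every alternative run, whereas the number of calls did not. Without the arrays of slides 4 and 5, 6 probes were called after 6.7 Gy but 0 after 7.4 Gy, where 2 irradiated and 3 control arrays then remained. Without slide 5 alone the counts were 5 and 5, and the methods' t-test called 1 and 4. With array position as a block both counts were 0. Only the 2 arrays of 6.7 Gy day 4 at position 1 then link the irradiated arrays with the controls. The reason for the lost calls was not tested. The 7.4 Gy changes were then 1.095 for CCL2, 0.89 for CCL8 and 0.95 for CCL11.

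**Figure D2:**
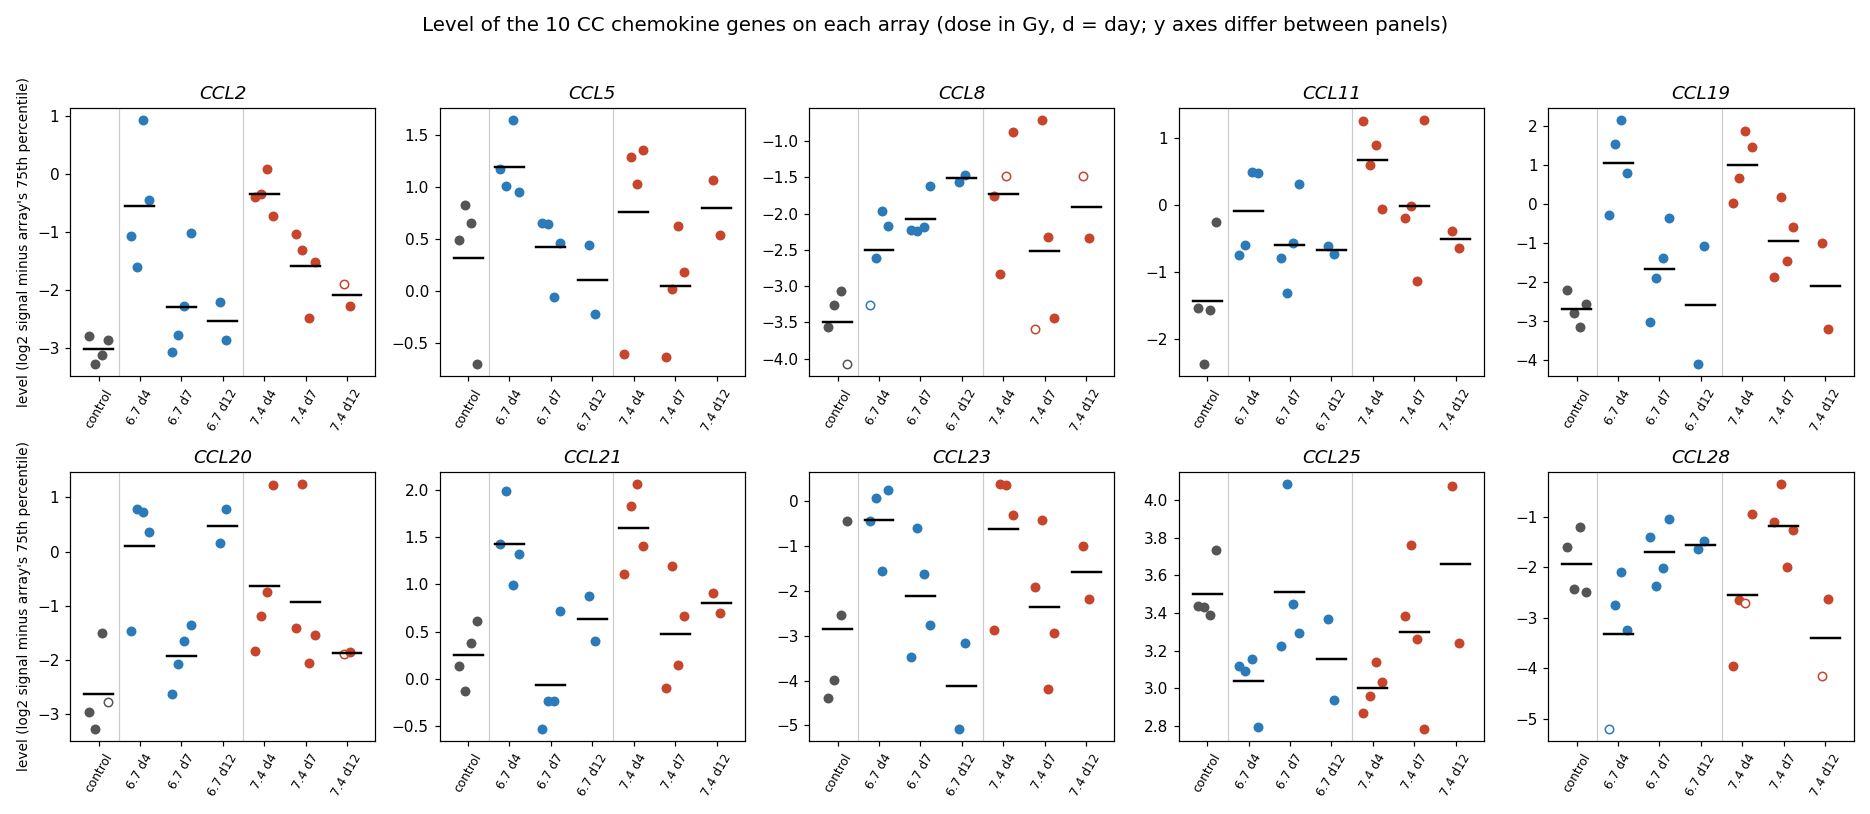
Level of each gene on every array, in log2 units relative to the array's 75th percentile, for control (grey), 6.7 Gy (blue) and 7.4 Gy (red) on days 4, 7 and 12. Each circle is 1 array, open where the probe was not well above background, and each bar is a group mean; the day 4 arrays of CCL19 lie between -0.29 and 2.15, all above the controls at -3.15 to -2.21.

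CCL19 and its partner CCL21, the ligands of CCR7, rose together on day 4 after both doses. The level of CCL19 was -2.21, -2.79, -3.15 and -2.56 on the 4 control arrays. It was -0.29, 1.52, 2.15 and 0.80 on day 4 after 6.7 Gy, and 0.03, 0.66, 1.87 and 1.46 after 7.4 Gy. Every irradiated day 4 array stood above every control, and both doses covered much the same range. The log2 change was 3.72 ± 0.47 after 6.7 Gy (adjusted p = 0.00862) and 3.68 ± 0.39 after 7.4 Gy (adjusted p = 0.00394). The other CCL19 probe, which followed the first with r = 0.987 over the 24 arrays, gave 3.14 ± 0.45 (adjusted p = 0.0136) and 3.22 ± 0.35 (adjusted p = 0.00459).

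By group mean, CCL19 was highest on day 4 after 6.7 Gy (1.04 ± 1.05, n = 4) and after 7.4 Gy (1.00 ± 0.82, n = 4). Then came day 7 after 7.4 Gy (-0.94 ± 0.91, n = 4), day 7 after 6.7 Gy (-1.66 ± 1.11, n = 4) and day 12 after 7.4 Gy (-2.09 ± 1.55, n = 2). Day 12 after 6.7 Gy (-2.59 ± 2.14, n = 2) and control (-2.68 ± 0.40, n = 4) came last. The step from 7.4 Gy day 4 to 7.4 Gy day 7 was larger than either SD but did not pass limma (adjusted p = 0.109), and the other neighbours in this order differed by less than the larger of their SDs. The 2 arrays of each day 12 group lay far apart, at -4.10 and -1.08 after 6.7 Gy and at -0.997 and -3.19 after 7.4 Gy.

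CCL21 rose less than CCL19 but with a narrower spread. Its level was 0.13, -0.13, 0.38 and 0.61 in controls. On day 4 it was 1.43, 1.99, 0.99 and 1.33 after 6.7 Gy, and 1.11, 1.83, 2.06 and 1.40 after 7.4 Gy. Neither irradiated group overlapped the controls. The log2 change was 1.19 ± 0.24 after 6.7 Gy (2.28-fold, adjusted p = 0.0351) and 1.35 ± 0.25 after 7.4 Gy (2.55-fold, adjusted p = 0.0219). The other CCL21 probe (r = 0.877 with the first) rose by 1.58 ± 0.27 and 1.65 ± 0.26, with adjusted p = 0.0224 and 0.0145.

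CCL19 remained called after 6.7 Gy in 22 of 25 alternatives and after 7.4 Gy in 23 of 25, whereas CCL21 did so in 11 and 15 of 25. Leaving out any 1 array kept both CCL19 calls. It ended the CCL21 call in 6 of 8 cases after 6.7 Gy and in 4 of 8 after 7.4 Gy, where the change stayed between 1.00 and 1.33 and between 1.20 and 1.52.

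CCL2, the main monocyte attractant among the members, rose on day 4 after both doses. Control arrays had levels of -2.79, -3.29, -3.13 and -2.87. On day 4 the level was -1.07, -1.60, 0.93 and -0.45 after 6.7 Gy, and -0.39, -0.34, 0.08 and -0.73 after 7.4 Gy. All 8 irradiated arrays were above all 4 controls, and the 6.7 Gy arrays spread more widely (SD 1.09 against 0.33). CCL2 rose by 2.47 ± 0.47 on the log2 scale after 6.7 Gy (5.54-fold, adjusted p = 0.0289) and by 2.67 ± 0.20 after 7.4 Gy (6.36-fold, adjusted p = 0.00149). Leaving out any 1 array kept the call after 7.4 Gy. After 6.7 Gy the call was lost in 5 of 8 such fits, with the change between 1.98 and 2.82. With levels below a common detection floor set to it, the 6.7 Gy change was 1.31 and lost its call (adjusted p = 0.283). The 7.4 Gy change was 1.51 and kept it (adjusted p = 0.0137). The CCL2 call held in 13 of 24 alternatives after 6.7 Gy and in 22 of 24 after 7.4 Gy.

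CCL8, another monocyte attractant, was dim. Its brightest probe was well above background on 19 of 24 arrays, and 3 of 4 in control. The level was -3.56, -3.27, -3.06 and -4.08 in controls, -3.26, -2.61, -1.97 and -2.17 on day 4 after 6.7 Gy, and -1.76, -2.83, -1.48 and -0.87 on day 4 after 7.4 Gy. The 7.4 Gy arrays stood clear of the controls and the 6.7 Gy arrays overlapped them. CCL8 rose by 1.76 ± 0.40 after 7.4 Gy (3.39-fold, adjusted p = 0.0413), and a second probe by 1.595 ± 0.35 (adjusted p = 0.0384), although that probe was well above background on only 2 of 4 arrays of this group and 3 of 4 controls. The remaining probe, above it on 2 of 4 in both groups, gave 1.54 ± 0.55 (adjusted p = 0.13), which does not pass. The CCL8 call held in 8 of 24 alternatives and was lost in 7 of 8 fits without 1 array, with the change between 1.47 and 2.12. The change was 0.37 with the common floor.

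On days 7 and 12 no CCL8 change passed the test. On day 7 after 6.7 Gy its levels were -2.22, -2.24, -2.18 and -1.62, and on day 12 they were -1.56 and -1.47. All 6 arrays were above the controls, as they were for 3.99% of all tested probes on day 7 and 10.1% on day 12. The log2 change was 1.43 ± 0.24 on day 7 (adjusted p = 0.0895) and 1.98 ± 0.29 on day 12 (adjusted p = 0.208). After 7.4 Gy it was 1.58 ± 0.36 on day 12 (adjusted p = 0.4), with levels of -1.48, not well above background on that array, and -2.34. These 3 changes were 0.06, 0.35 and 0.19 with the common floor. With quantile normalization the day 7 change passed, at 1.44 (adjusted p = 0.0496).

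CCL11 (eotaxin) rose after the higher dose on day 4. Its level was -1.54, -2.38, -1.57 and -0.26 in controls, -0.75, -0.60, 0.49 and 0.48 on day 4 after 6.7 Gy, and 1.26, 0.60, 0.90 and -0.06 on day 4 after 7.4 Gy. One control array, replicate 4 on slide 4, lay among the 6.7 Gy arrays, and the 7.4 Gy arrays were all above it. The log2 change was 2.11 ± 0.44 after 7.4 Gy (4.32-fold, adjusted p = 0.0325) and 1.34 ± 0.47 after 6.7 Gy (2.54-fold, adjusted p = 0.144, not called). The difference between the doses was not called. With slide as a fixed block CCL11 also passed after 6.7 Gy, at 1.89 (adjusted p = 0.0412), and it did so at 1.96 without slides 4 and 5, whereas a fit with array position as a block gave 0.765 (adjusted p = 0.546). The call after 7.4 Gy held in 12 of 25 alternatives and was lost in 6 of 8 fits that left out 1 array, with the change between 1.80 and 2.50.

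CCL20, the ligand of CCR6, rose after the lower dose on day 4. Its level was -2.96, -3.27, -1.50 and -2.77 in controls, the last not well above background. On day 4 it was -1.46, 0.78, 0.74 and 0.35 after 6.7 Gy, and -1.83, -1.18, -0.74 and 1.24 after 7.4 Gy. The 6.7 Gy arrays lay above the controls, the lowest by a narrow margin, while the 7.4 Gy arrays overlapped them. CCL20 rose by 2.73 ± 0.55 after 6.7 Gy (6.63-fold, adjusted p = 0.034). After 7.4 Gy the change was 1.99 ± 0.64 (adjusted p = 0.102), which does not pass and was 1.14 with the common floor, and the difference between the doses was not called. The 6.7 Gy call held in 12 of 24 alternatives and was lost in 6 of 8 fits without 1 array, where the change lay between 2.50 and 3.25.

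On day 12 after 6.7 Gy CCL20 was at 0.17 and 0.79, above every control and every day 7 array of that dose, as were 10.1% and 10.6% of all tested probes. The log2 change against control was 3.10 ± 0.49 (8.58-fold, adjusted p = 0.247), and against day 7 it was 2.41 ± 0.83 (adjusted p = 0.484), or 4.12 with position as a block (adjusted p = 0.507). Neither passed the test. On day 12 after 7.4 Gy both arrays lay lower, at -1.89 (not well above background) and -1.84.

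CCL5 and CCL23 did not pass the test at any time. CCL5 lay between 0.96 and 1.65 on day 4 after 6.7 Gy and between -0.70 and 0.84 in controls, groups that did not overlap (6.68% of all tested probes lay so). The log2 change was 0.88 ± 0.33 (adjusted p = 0.177), and 3 other CCL5 probes, which followed the first with r of 0.955 to 0.977, gave 1.09 to 1.15 with adjusted p between 0.107 and 0.2. After 7.4 Gy CCL5 overlapped the controls (0.45 ± 0.49, adjusted p = 0.614), with replicate 1 at -0.60 and the other 3 arrays between 1.03 and 1.36. The lowest control, replicate 4, was at -0.70 and the other 3 between 0.49 and 0.84. Another CCL5 probe did not follow the others (r = -0.136), and no change was called on it.

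CCL23 had the widest spread of the members in control, from -4.40 to -0.44, with replicate 4 the highest. Its log2 change on day 4 was 2.42 ± 0.81 after 6.7 Gy (adjusted p = 0.134) and 2.23 ± 0.97 after 7.4 Gy (adjusted p = 0.199). Without control replicate 4 the 6.7 Gy change was 3.22 and passed the test (adjusted p = 0.034), as it did without slides 4 and 5, at 3.23. With the common floor the changes were 1.08 and 1.15. The other probe that carries the CCL23 symbol was designed on a macaque cDNA that the deposited annotation describes as similar to another gene, so it may not measure CCL23. It was well above background on 13 arrays and was not tested.

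CCL25 and CCL28 had negative mean changes on day 4, which did not pass the test. CCL25 lay between 3.39 and 3.74 in controls, between 2.79 and 3.16 on day 4 after 6.7 Gy and between 2.87 and 3.14 after 7.4 Gy, and all 8 irradiated arrays were below all 4 controls, as they were for 7.66% of all tested probes after 6.7 Gy and 10.1% after 7.4 Gy. The log2 change was -0.46 ± 0.15 (adjusted p = 0.119) and -0.50 ± 0.14 (adjusted p = 0.0729), which is also less than 2-fold. On day 7 its level overlapped the controls at both doses. On day 12 it did so after 7.4 Gy, whereas both arrays of 6.7 Gy, at 3.37 and 2.94, were below all controls, as for 7.43% of all tested probes.

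CCL28 was lower in the mean on day 4 than in control, by -1.39 ± 0.61 after 6.7 Gy (adjusted p = 0.238) and -0.63 ± 0.58 after 7.4 Gy (adjusted p = 0.541), and the groups overlapped. Its level ran from -5.19 to -2.09 on day 4 after 6.7 Gy and from -2.49 to -1.20 in controls. The lowest of these, replicate 1 on slide 5, was not well above background. On day 12 after 7.4 Gy its levels were -4.15, again on slide 5 and not well above background, and -2.63, and the log2 change was -1.46 ± 0.53 (adjusted p = 0.578). It was -0.71 without that slide 5 array, -2.22 without the other and -0.23 with the common floor. On day 4 the other CCL28 probe (r = 0.929 with the first) changed by -0.92 ± 0.41 after 6.7 Gy (adjusted p = 0.242). After 7.4 Gy it changed by -0.81 ± 0.60 (adjusted p = 0.44).

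On days 7 and 12 no member passed the test against control. On day 7, 0 of 19 member probes were called after 6.7 Gy (0.0639% of all tested probes) and 0 of 19 after 7.4 Gy (0.288%). At an unadjusted p under 0.05 and 2-fold, the gene was CCL8 after 6.7 Gy, and CCL2, CCL11, CCL19 and CCL20 after 7.4 Gy. These 4 had log2 changes of 1.43 ± 0.30 (CCL2, adjusted p = 0.0772), 1.42 ± 0.55 (CCL11, adjusted p = 0.249), 1.74 ± 0.42 (CCL19, adjusted p = 0.106) and 1.69 ± 0.69 (CCL20, adjusted p = 0.271). For CCL2 and CCL19 all 4 arrays of 7.4 Gy day 7 were above all 4 controls, as for 5.87% of all tested probes. The CCL20 change was 0.96 without replicate 2, the array at 1.24, while the other 3 lay between -2.05 and -1.40. Without irradiated replicate 3, CCL2 passed the test on day 7 after 7.4 Gy, at 1.73 (adjusted p = 0.0255). With the common floor the changes of CCL2, CCL19 and CCL20 on day 7 were 0.43, 0.92 and 0.88.

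On day 12, 0 of 19 were called after 6.7 Gy (0.0071% of all tested probes) and 0 of 19 after 7.4 Gy (0.00355%). CCL8 and CCL20 after 6.7 Gy, and CCL8 and CCL28 after 7.4 Gy, reached an unadjusted p under 0.05 with 2-fold. On days 7 and 12 the methods' t-test, Benjamini-Hochberg adjusted, likewise called 0 member probes. The median log2 change over the 10 genes was 0.71 and 0.86 on day 7 and 0.38 and 0.67 on day 12 after 6.7 and 7.4 Gy, beside 0.00, -0.03, 0.03 and -0.02 over all tested probes. Groups of 2 arrays limit what day 12 can show. The 7.4 Gy arrays of day 12 also shared no slide or scan day with the controls, so these arrays alone do not separate irradiation from them.

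Between day 4 and day 7, CCL2, CCL19 and CCL21 fell after 6.7 Gy, and CCL21 fell after 7.4 Gy. After 6.7 Gy, 5 of 19 member probes, all lower, were called between day 7 and day 4 (1.55% of all tested probes). CCL21 changed by -1.50 ± 0.30 (adjusted p = 0.00942), CCL19 by -2.71 ± 0.69 (adjusted p = 0.0314) and CCL2 by -1.74 ± 0.45 (adjusted p = 0.0351). For CCL19 and CCL21 all day 7 arrays were below all day 4 arrays, as for 5.45% of all tested probes, whereas the highest CCL2 array of day 7, at -1.02, was above 2 of the day 4 arrays. CCL20 changed by -2.03 ± 0.68 (adjusted p = 0.0891) and CCL28 by 1.61 ± 0.61 (adjusted p = 0.133), neither called. Without day 4 replicate 1, on slide 5, CCL20 passed at -2.55 (adjusted p = 0.0401) and the CCL28 change was 0.98. With the common floor the CCL28 change was 0.32 and the CCL2 change -1.099. The methods' t-test called 0 of these 5 probes, and a fit on the arrays of these 2 groups alone called 1.

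After 7.4 Gy, 2 of 19 were called between day 7 and day 4 (1.64% of all tested probes), both of them CCL21. Its standing probe changed by -1.12 ± 0.30 (adjusted p = 0.0375) and the other by -1.34 ± 0.32 (adjusted p = 0.0223). CCL19 changed by -1.94 ± 0.69 (adjusted p = 0.109), CCL2 by -1.24 ± 0.45 (adjusted p = 0.122), and CCL28 by 1.38 ± 0.61 (adjusted p = 0.205), none of them called. With the common floor CCL19 passed at -1.94 (adjusted p = 0.0453) and the CCL28 change was 0.48, and without day 4 replicate 1 the CCL28 change was 0.92. CCL8 and CCL11, higher than control on day 4, were not called between these days either. Neither probe of CCL21 passed without the arrays of slide 5, nor in the fit on the arrays of these 2 groups alone. Without slides 4 and 5 the change of the standing probe was -0.58 (adjusted p = 0.465).

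From day 4 to day 12, CCL19 fell at both doses. After 6.7 Gy it was the 1 of 19 member probes called (0.951% of all tested probes), at -3.63 ± 0.85 (adjusted p = 0.0386). After 7.4 Gy 3 of 19 were called (2.42%), both CCL19 probes and the second of CCL21, with CCL19 at -3.10 ± 0.85 (adjusted p = 0.0458). Leaving out 1 array ended the 7.4 Gy call of CCL19 in 6 of 6 fits and the 6.7 Gy call in 4 of 6. The change lay between -4.19 and -2.001 and between -5.14 and -2.12. With slide as a fixed block or scan day as a block, 0 member probes were called in either comparison. CCL2 changed by -1.99 ± 0.56 (adjusted p = 0.0772) and -1.75 ± 0.56 (adjusted p = 0.0795). CCL23 after 6.7 Gy changed by -3.69 ± 1.13 (adjusted p = 0.0978), CCL5 by -1.09 ± 0.48 (adjusted p = 0.24) and CCL28 by 1.76 ± 0.75 (adjusted p = 0.227). With the common floor, the 6.7 Gy changes were -1.31 for CCL2, -1.43 for CCL23 and 0.30 for CCL28. Without day 4 replicate 1, on slide 5, the CCL28 change was 1.13, and without replicate 2 CCL2 passed at -2.34 (adjusted p = 0.0496). With slide as a fixed block the CCL5 change was -0.47.

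Between day 12 and day 7, 0 of 19 were called after 6.7 Gy (0.00355% of all tested probes) and 0 of 19 after 7.4 Gy (0.0248%). CCL28 after 7.4 Gy was lower on day 12 by -2.21 ± 0.75 (adjusted p = 0.333), with all 4 day 7 arrays, at -1.99 to -0.36, above both day 12 arrays, a separation found below day 7 for 7.82% of all tested probes. The difference was -0.71 with the common floor.

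No member was called between the doses by limma. On days 4, 7 and 12 the counts were 0 of 19, and 0% of all tested probes passed on each day. The log2 difference between 7.4 and 6.7 Gy ran over the 10 genes from -0.74 (CCL20) to 0.77 (CCL8) on day 4, with SE of 0.22 to 0.92, and from -0.45 (CCL8) to 1.00 (CCL20) on day 7. On day 12 CCL20 was lower after 7.4 Gy by -2.34 ± 0.96 and CCL28 by -1.83 ± 0.86 (adjusted p = 0.995 for both), the 2 genes at an unadjusted p under 0.05 and 2-fold. The day 12 arrays of the doses lay on different slides scanned on different days, so they alone do not separate dose from slide and scan day. The CCL28 difference was -1.08 without the slide 5 array, -2.59 without the other array of its group and -0.30 with the common floor. CCL23 was higher after 7.4 Gy by 2.53 ± 1.30 (adjusted p = 0.995), at -0.99 and -2.18 against -5.07 and -3.17. Its groups of 2 did not overlap, as for 12.3% of all tested probes. On days 4 and 7 no member had an unadjusted p under 0.05. With SE of this size, differences of 2-fold between the doses could not be told from 0 for several members.

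Across all 7 groups, the moderated F test called 6 of 19 member probes, beside 9.96% of all tested probes. They stood for CCL2 (adjusted p = 0.00484), CCL19 (adjusted p = 0.0047), CCL20 (adjusted p = 0.0475) and CCL21 (adjusted p = 0.00797). CCL11 (adjusted p = 0.0851), CCL28 (adjusted p = 0.113), CCL8 (adjusted p = 0.128) and CCL23 (adjusted p = 0.141) came next. The test of whether the dose difference changed with day called 0 of 19 (0% of all tested probes), and CCL20 had the lowest unadjusted p of the members, 0.0277.

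For each gene and dose called on day 4, both irradiated arrays that shared a slide with a control exceeded it. On slides 1 and 2, the 6.7 Gy day 4 arrays exceeded their own control by 4.35 and 3.59 for CCL19, by 3.72 and 2.83 for CCL2, by 3.70 and 3.62 for CCL20 and by 0.86 and 1.46 for CCL21. On slides 3 and 4, the 7.4 Gy day 4 arrays did so by 3.18 and 3.22 for CCL19, by 2.74 and 2.52 for CCL2, by 1.31 and 1.25 for CCL8, by 2.83 and 0.865 for CCL11 and by 0.73 and 1.21 for CCL21. After 7.4 Gy, the slide 3 pair went the other way from the slide 4 pair for 3 of the members not called, at -0.34 and 1.59 for CCL20, -0.33 and 0.82 for CCL23 and -1.26 and 1.99 for CCL5, while both pairs were below 0 for CCL25 and CCL28. On day 7 after 6.7 Gy, where slides 1 to 4 each held 1 such array, the differences ran from 0.88 to 2.46 for CCL8 and from 0.57 to 1.06 for CCL11. For the other 8 members they lay on both sides of 0, from -0.28 to 1.85 for CCL2, from -0.82 to 2.20 for CCL19 and from -0.66 to 0.11 for CCL21, for example. These pairs sat at different positions of the slide. The other 2 arrays of 6.7 Gy day 4 were at position 1, as the controls were, on slides scanned on the other day, and their CCL19 levels of -0.29 and 1.52 were also above every control. Controls and the 7.4 Gy arrays never shared a position, so for that dose the position can be separated from the dose only through the 6.7 Gy day 4 arrays.

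**Figure D3:**
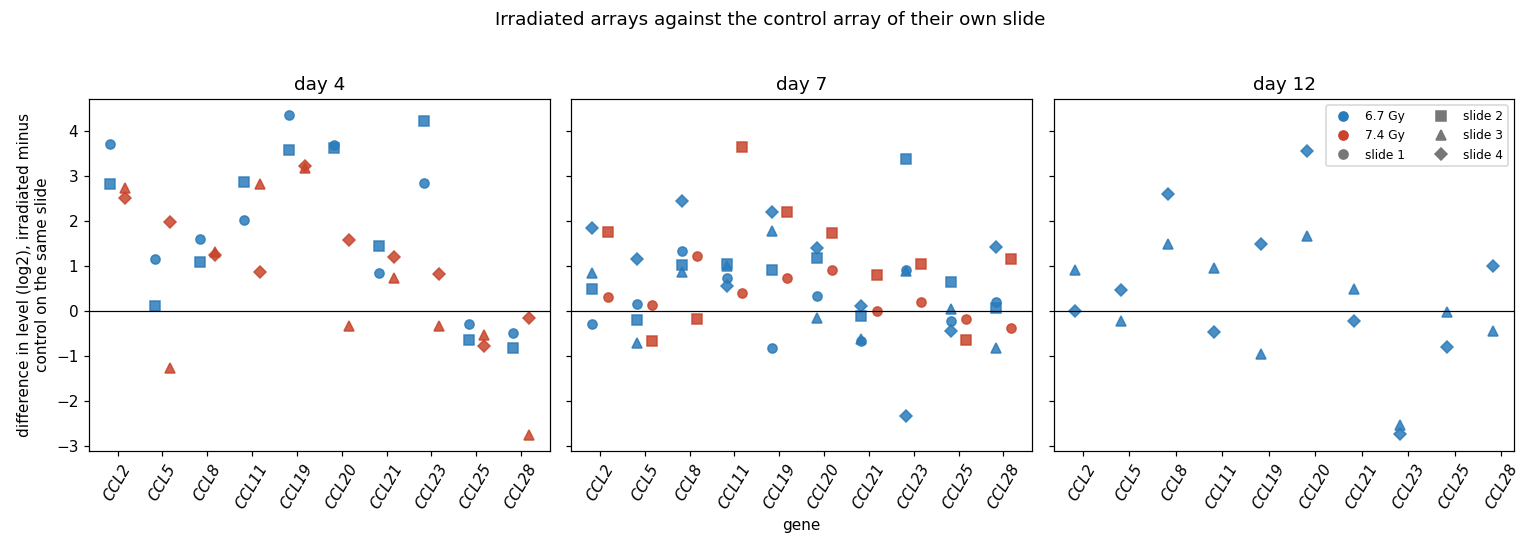
Difference in level (log2) between each irradiated array and the control array on its own slide, by gene, for days 4, 7 and 12; colour gives the dose (blue 6.7 Gy, red 7.4 Gy) and symbol the slide, and slides 5 and 6 held no control. On day 4 all 4 points of CCL2, CCL8, CCL11, CCL19 and CCL21 are above 0, and the 4 points of CCL25 and of CCL28 are below it.

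**Figure D4:**
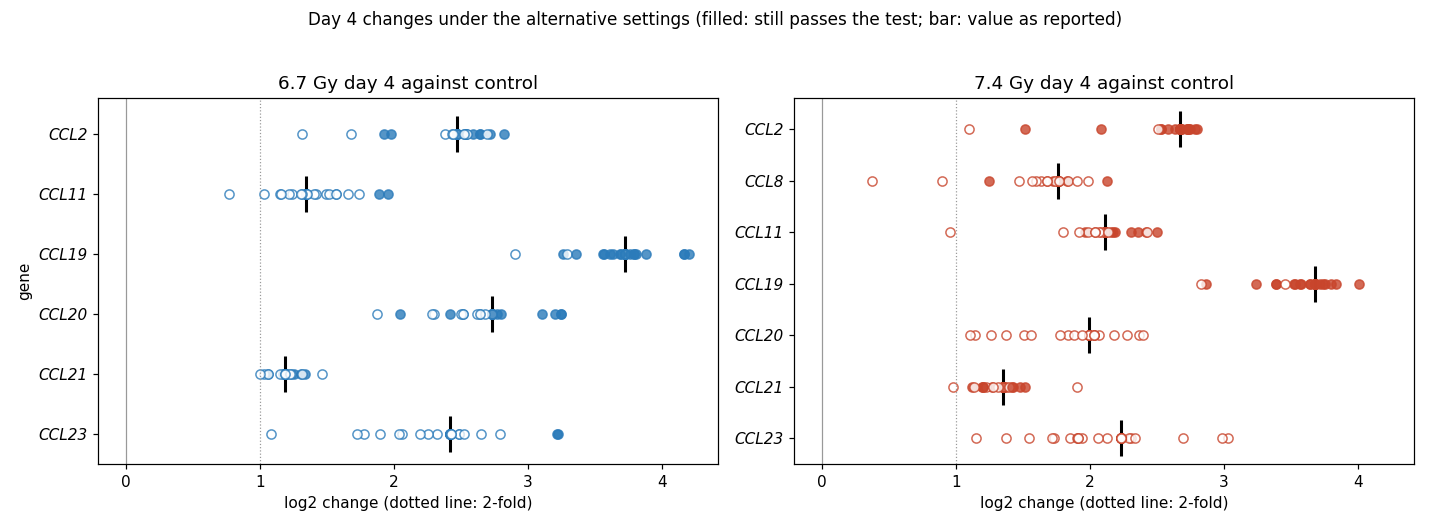
Day 4 log2 change of the members with an unadjusted p under 0.05 and 2-fold, under each alternative setting; the black bar is the value as reported, filled circles pass the test and open ones do not, and the dotted line is 2-fold. CCL19 stays between 2.90 and 4.21 after 6.7 Gy and between 2.83 and 4.01 after 7.4 Gy, and no circle crosses 0.

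Of 11 CC receptor genes on the array, 5 were bright enough to be tested, and 1 rose: CCR1, a receptor for CCL5 and CCL23, by 1.20 ± 0.17 on day 4 after 7.4 Gy (adjusted p = 0.0102), after 0.80 ± 0.35 at 6.7 Gy (adjusted p = 0.231). CCR1 was dim, well above background on 19 of 24 arrays. CCR7, the receptor of CCL19 and CCL21, had log2 changes of 0.76 ± 0.27 and 1.05 ± 0.63 on day 4 (adjusted p = 0.155 and 0.338). CCR9, the receptor of CCL25, had -0.72 ± 0.34 and -0.43 ± 0.28 (adjusted p = 0.268 and 0.379), and CCR10, the receptor of CCL28, -0.82 ± 0.31 and -1.10 ± 0.37 (adjusted p = 0.181 and 0.117). The median over the 5 receptors was -0.20 and -0.21, beside -0.07 and -0.08 over all tested probes. CCR2, CCR3 and CCR6 were among those not tested.

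Of the atypical receptors, which bind chemokines without signalling for movement, 3 were tested and 2 changed on day 4, in opposite directions. DARC (ACKR1), which carries inflammatory chemokines across venules, rose by 1.54 ± 0.23 after 6.7 Gy (2.91-fold, adjusted p = 0.0147) and by 1.76 ± 0.19 after 7.4 Gy (3.39-fold, adjusted p = 0.00394). CCRL1 (ACKR4), which scavenges CCL19, CCL21 and CCL25, changed by -1.11 ± 0.18 (adjusted p = 0.0167) and -1.06 ± 0.19 (adjusted p = 0.0199). On days 7 and 12 neither was called.

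Of 9 tested CC chemokines outside the 10, 0 were called on day 4 after 6.7 Gy and 1 after 7.4 Gy, CCL18, which rose by 1.22 ± 0.19 (adjusted p = 0.0146). CCL27 had a log2 change of 0.91 at both doses, below 2-fold (adjusted p = 0.0449 and 0.0315). Of 12 tested CXC, XC and CX3C chemokines, 1 rose after 6.7 Gy, CXCL10 (1.64 ± 0.31, adjusted p = 0.0279), and 2 after 7.4 Gy. These were IL8, the neutrophil attractant (2.83 ± 0.50, adjusted p = 0.0199), and CXCL12 (1.06 ± 0.24, adjusted p = 0.0413). IL8 was dim, well above background on 18 of 24 arrays. The medians of these lists were 0.75 and 0.75 for the other CC chemokines and 0.80 and 1.14 for the CXC group. None of 5 tested CXC receptors and none of 10 tested NF-kB feedback genes and cytokine inducers was called by limma in any comparison with control.

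Markers of several cell types moved on day 4 beside the chemokines. Of 7 tested fibroblast genes, 0 were called after 6.7 Gy and 4 rose after 7.4 Gy. Of these, the 3 with the smallest p, DCN, LUM and COL1A2, had log2 changes of 1.25, 1.13 and 1.14. The summed linear level (2 to the power of the level, added over the 8 fibroblast genes on the array) was 40.0 to 75.1 in controls, 88.0 to 99.9 on day 4 after 6.7 Gy and 102 to 188 after 7.4 Gy. It was 28.9 to 62.9 and 41.3 to 121 on day 7, and 35.7 to 62.6 and 32.8 to 76.8 on day 12. Brighter probes weigh more in such sums, so a sum can mostly follow its brightest gene. The part of fibroblasts in the chemokine changes was not tested.

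Of 8 tested monocyte and macrophage genes, 1 rose on day 4 after 7.4 Gy, CD14 (1.25 ± 0.24, adjusted p = 0.0253), and 0 after 6.7 Gy. Their summed level was 21.4 to 27.4 in controls, 25.4 to 36.9 on day 4 after 6.7 Gy, 30.5 to 35.4 on day 4 after 7.4 Gy, 18.1 to 27.0 on day 7 and 23.4 to 25.5 on day 12. Of 8 tested genes of organized lymphoid tissue, none was called against control, and 1 was called lower on day 7 and on day 12 than on day 4 at each dose. Their sum was 4.21 to 5.82 in controls, 5.04 to 8.22 and 6.42 to 9.47 on day 4, 3.86 to 6.67 on day 7 and 3.51 to 4.17 on day 12. The genes of lymphatic endothelium (5 tested), blood endothelium (6), T cells (9), B cells (3), neutrophils (3) and eosinophils (1) had no call against control. Some were called lower than on day 4. After 7.4 Gy these were 1 blood endothelium gene on day 7 and 3 on day 12, and 1 and 2 monocyte and macrophage genes. They were 1 lymphatic endothelium gene and 1 T cell gene on day 7 after 6.7 Gy. The part of these cells in the chemokine changes was not tested.

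Some markers fell. Of 7 tested enterocyte genes, 2 fell after 6.7 Gy and 1 after 7.4 Gy, while 3 and 2 of them had a positive change, with medians of -0.37 and -0.56. FABP1, which binds fatty acids, changed by -1.56 ± 0.19 and -1.23 ± 0.18 on day 4 (adjusted p = 0.00754 and 0.0129). VIL1, which builds the brush border, changed by -1.58 ± 0.33 after 6.7 Gy (adjusted p = 0.0358). The sum over 7 enterocyte genes was 462 to 566 in controls against 331 to 383 and 298 to 445 on day 4. Of 7 tested enteroendocrine genes, 1 fell after 6.7 Gy and 2 after 7.4 Gy. The hormone gene GIP changed by -2.21 ± 0.33 and -2.78 ± 0.38 (adjusted p = 0.0147 and 0.0101), and MLN (motilin) by -2.94 ± 0.64 after 7.4 Gy (adjusted p = 0.0369). At each dose 4 of the 7 had a positive change, with medians of 0.29 and 0.07, and their sum was 43.6 to 55.4 in controls, 38.7 to 52.7 on day 4 after 6.7 Gy and 35.2 to 72.3 after 7.4 Gy. MZB1, 1 of 6 tested plasma cell genes, changed by -1.71 ± 0.37 and -1.84 ± 0.37 (adjusted p = 0.0412 and 0.029). HBB, a globin gene of red cells, fell on days 4 and 7 at both doses (adjusted p between 0.00142 and 0.00464), with a signal that cleared the background on 15 of 24 arrays. The sum over 5 erythroid genes, to which HBB adds little, was 149 to 258 in controls, 103 to 174 on day 4 and 110 to 213 on day 7. No call against control was made among genes of goblet cells (6 tested), Paneth cells (5), M cells (3) or smooth muscle (5). The part of these cells in the chemokine values was not tested.

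Over the 24 arrays, the genes with patterns most like each member were named as a description only, since these arrays share the groups, slides and scaling. CCL19 was most like GPX2 (Pearson r = 0.904) and APOBEC3H (0.901), and CCL2 like APOBEC3H (0.895) and CD44 (0.89). CCL21 was most like DARC (0.838) and LGALS1 (0.835), and CCL11 like COL6A3 (0.868) and CD276 (0.865). For CCL20 the nearest were CPSF4 (0.875) and WDR46 (0.823), for CCL5 CHI3L2 (0.806) and CST7 (0.766), and for CCL23 DEFB1 (0.747) and NME1 (0.74). For CCL25 they were CORO2A (0.792) and PLS1 (0.78), and for CCL28 PRCP (0.755) and PTDSS1 (0.716). Among the members themselves r ran from -0.476 (CCL11 with CCL25) to 0.828 (CCL2 with CCL19).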

How the data were processed

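Per the file headers, the authors extracted each Cy3 array with Agilent Feature Extraction 11.0.1.1, and the deposited background-corrected intensity of each spot was used here. The authors' deposited log2 table, made in GeneSpring, supplied gene symbols and an alternative. Control spots were left out, spots of a probe averaged on the log2 scale, and the array's 75th percentile subtracted. Testing was limited to the 28171 of 43603 probes that some group had well above background throughout. Limma 3.58.1 under R 4.3.3 (lmFit, eBayes) set each irradiated group against control, using only the arrays of both groups. Contrasts between irradiated groups and F tests used 1 model of all 24 arrays. Adjustment was Benjamini-Hochberg over all tested probes. The number of arrays limits precision.

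The members and lists (17 of cell markers, 6 of related families) were chosen with earlier results of these data known. Every member probe was described, although not in every comparison. Log2 changes were printed at an unadjusted p under 0.05 and 2-fold. Those of CCL25, CCL28, CCL5, CCL23 on day 12 and the receptors of members were added after their values were seen. The 2 genes with the highest r were named for each member well above background on at least 20 arrays. In each list, the called genes with the smallest p, at most 3, were named. Scripts were tested on simulated data. Alternatives covered background correction, scaling, filters, floor, blocks for slide, scan day, position and replicate, fit, test and arrays left out. The scanner files held median, not mean, spot signals, so normexp used those. Replicate numbers were not taken to pair the samples, which needed every correlation of same-numbered deviations from the group means to exceed 0.1. They ran from -0.164 to 0.061 except on day 7 after 6.7 Gy, where they were 0.095 to 0.238, 3 of 4 exceeded 0.1 and same-numbered arrays shared a slide with their control.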

Additional observations from a re-analysis of the deposited data

Results flagged for a closer look

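In 3 of the 50 groups of 4 arrays (10 genes in 5 groups), 1 array stood apart from the other 3. Chance alone gives about 1 in 20 such groups. CCL5 on day 4 after 7.4 Gy had a level of -0.605 in replicate 1, with the nearest array at 1.029. CCL8 on day 7 after 6.7 Gy had -1.621 in replicate 4 against -2.184 for the nearest. CCL25 in control had 3.736 in replicate 4 against 3.438.

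The level of 3 genes differed between days of the same dose in a direct test of irradiated groups. No control was sampled on day 7 or day 12. The day 4 arrays also lay at other slide positions than the later ones, so day and position cannot be told apart. Each call was lost in some alternatives. After 6.7 Gy, day 7 minus day 4 was -1.74 for CCL2, -2.706 for CCL19 and -1.504 for CCL21, and day 12 minus day 4 was -3.631 for CCL19. After 7.4 Gy, day 7 minus day 4 was -1.122 for CCL21, and day 12 minus day 4 was -3.095 for CCL19.

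In 4 cases every array of one group lay above the control mean and every array of another below it, and these differences did not pass limma. In these comparisons between 12% and 19.9% of all tested probes had groups that did not overlap in a given direction. CCL23 was higher on day 4 than on day 12 after 6.7 Gy by 3.693 and higher on day 12 after 7.4 Gy than after 6.7 Gy by 2.534. CCL28 on day 12 after 6.7 Gy was higher than on day 4 by 1.755 and higher than on day 12 after 7.4 Gy by 1.831. The doses also differed in slide and scan day on day 12.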

How the results depend on the processing

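No log2 change printed for a member at an unadjusted p under 0.05 and 2-fold changed direction in any alternative. Member probes called on day 4 against control numbered 6 after 6.7 Gy and 8 after 7.4 Gy. They became 1 and 3 with no filter on dim probes, 0 and 5 with a common floor, 0 and 0 with position as a block, 1 and 4 by the methods' t-test and 0 and 3 with the replicate number as a block. After 7.4 Gy they were also 5 with only probes well above background on all arrays, 5 without slide 5 and 0 without slides 4 and 5, the last pair of settings being chosen after seeing the data. On day 7 after 6.7 Gy quantile normalization gave 1 in place of 0. Leaving out 1 array gave 2 to 5 and 4 to 7 on day 4, and 0 to 0 and 0 to 1 on day 7.

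From day 4 to day 7 after 6.7 Gy (5 probes), the counts were 2 with no filter, 3 with slide as a fixed block, 1 when fitted on these groups alone, 0 by the methods' t-test and 2 to 6 with 1 array left out. After 7.4 Gy (2 probes) they were 4 with a common floor, 1 with normexp, 0 with no filter, with slide as a fixed block, fitted alone, by the methods' t-test and without slide 5 or slides 4 and 5, and 0 to 3 with 1 array left out. From day 4 to day 12 after 6.7 Gy (1 probe), they were 3 with only probes above background on all arrays and without slide 5, and 2 with normexp, slide as a random block, or trend and robust. They were 0 with no filter, a common floor, slide as a fixed block, scan day, the replicate block, the fit alone and the methods' t-test, and 0 to 2 with 1 array left out. After 7.4 Gy (3 probes) they were 1 with a common floor and 0 with no filter, slide as a fixed block, scan day, the replicate block, the fit alone, the methods' t-test and without slide 5 or slides 4 and 5, and 0 to 2 with 1 array left out. The F test over the groups gave 3 in place of 6 without slides 4 and 5, and 5 to 7 with 1 array left out. The cause of these shifts was not tested. All other member counts stayed within 1.5 times.

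Over the whole array the calls moved as well. Against control they ran from 93 to 849 (559 as reported) on day 4 after 6.7 Gy and from 12 to 864 (733) after 7.4 Gy, from 0 to 88 (18) and 3 to 448 (81) on day 7, and from 0 to 14 (2) and 0 to 449 (1) on day 12. From day 4 to day 7 they ran from 24 to 928 (436) and 0 to 698 (463), from day 4 to day 12 from 0 to 633 (268) and 0 to 1237 (681), and from day 7 to day 12 from 0 to 37 (1) and 0 to 581 (7). Between the doses they reached 1, 0 and 362 (0 each) on days 4, 7 and 12, the F test gave 188 to 4362 (2805), and the dose by day test reached 90 (0).

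Some changes that were not called moved by over 1.5 times as well. With normexp, the higher dose gave 1.26 (day 4) and 1.02 (day 7) for CCL20. At the lower dose normexp gave 0.92 for CCL8 (day 7 against control), -2.40 for CCL23 (day 12 against day 4), and 0.88 and 1.01 for CCL28 (days 7 and 12 against day 4). In the 7.4 Gy day 4 contrast, CCL20 was 1.11 with position as a block and CCL23 1.38 with slide as a fixed block. Quantile normalization put CCL28 at -2.27 in the 7.4 Gy day 12 contrast. Without slides 4 and 5, CCL28 was -0.89 on day 12 after 7.4 Gy, -0.99 between the doses on day 12, and 0.76 and 1.04 from day 4 to days 7 and 12 after 6.7 Gy, CCL8 was 0.96 on day 12 after 7.4 Gy, and the called CCL19 change from day 4 to day 12 after 6.7 Gy was -5.59. From day 7 to day 12 after 7.4 Gy, CCL28 was -1.43 without slide 5 or slides 4 and 5, and -1.46 without day 12 replicate 1.

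Day 12 fits that left out 1 array kept 1 in that group, which was assumed to vary like the other groups. With position as a block, days 7 and 12 against control, day 7 or 12 against day 4 and the F tests could not be fitted, since the days lay at different positions. Low sensitivity on slides 4 and 5 limits CCL8, CCL20 and CCL28, each not well above background on 2 or more arrays.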
